A study of Mus musculus with 12 samples.

Results

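The genes described here are 30 vascular and perivascular markers, chosen by name from the count table and all found there among its 52550 features. They comprise 15 endothelial genes, 5 pericyte genes, 4 smooth muscle genes and 6 fibroblast genes. They were read in ribosome-bound RNA pulled from the somatosensory cortex of mice at postnatal day 40 (strain label FVB/C57) that carried the Aldh1l1-TRAP transgene. In translating ribosome affinity purification (TRAP) a cell-type promoter, here that of the astrocyte gene Aldh1l1, drives an eGFP-tagged ribosomal protein, and an anti-eGFP antibody on magnetic beads pulls down the tagged ribosomes with their RNA. The Fmr1 knockout (Fmr1−/y, libraries 14, 16 and 18) was compared with the wild type (Fmr1+/y, libraries 13, 15 and 17), and both genotypes carried the transgene. The product of Fmr1, FMRP, binds RNA and regulates translation, and its loss causes fragile X syndrome. No library of whole-tissue RNA and none from mice without the transgene was analysed here, so an enrichment or depletion of vascular RNA by the pull-down could not be computed. Nothing in the labels ties each library to an animal of its own, and p-values therefore measure only the spread between these libraries.

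Brain capillaries are tubes of endothelial cells sealed by tight junctions, with transporters that move nutrients in and drugs out. Pericytes sit on capillaries within the basement membrane, smooth muscle cells wrap arterioles, and fibroblasts line larger vessels and the leptomeninges. Astrocyte endfeet cover the outer face of these vessels and supply signals such as VEGF, angiopoietin and Wnt ligands. Endothelial, mural and fibroblast cells are not known to use the Aldh1l1 promoter, and RNA of untagged cells can be carried along in a pull-down.

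Promoter sequences of 4 genes named below are shown for reference, and no expression value below rests on them. Cldn5 and Flt1 differed widely between libraries, Mfsd2a had the most counts, and Acta2 is the smooth muscle actin gene. Each is the run of 250 bases just before the start in the RefSeq promoter table, on the gene's strand, 5′ to 3′. The assembly is GRCm38.p6, the one behind mm10. That start is not always the outer end of the RefSeq gene span. By these spans the Flt1 window lies wholly inside the gene (147561604 to 147726438). The Acta2 window lies mostly inside its gene (34240336 to 34255585), with both marked boxes, and the Mfsd2a window overlaps its gene by a few bases. Capitals mark AGGAAG, the core of many ETS factor sites with its flanks, TATAAA, the TATA box core, and the CArG-like box, which is the binding site of serum response factor with up to 1 G or C among its central bases.
Cldn5, chr16:18776597-18776846, plus strand: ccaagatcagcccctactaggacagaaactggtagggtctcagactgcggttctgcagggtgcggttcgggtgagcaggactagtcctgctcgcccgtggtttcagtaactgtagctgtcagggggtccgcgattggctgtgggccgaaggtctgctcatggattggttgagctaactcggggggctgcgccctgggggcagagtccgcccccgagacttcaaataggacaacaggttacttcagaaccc
Flt1, chr5:147726012-147726261, minus strand: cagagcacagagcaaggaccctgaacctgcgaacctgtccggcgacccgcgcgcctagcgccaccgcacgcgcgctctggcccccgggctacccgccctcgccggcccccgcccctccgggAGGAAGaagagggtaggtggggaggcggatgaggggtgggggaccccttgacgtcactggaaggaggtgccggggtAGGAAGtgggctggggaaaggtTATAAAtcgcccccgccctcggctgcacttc
Mfsd2a, chr4:122961189-122961438, minus strand: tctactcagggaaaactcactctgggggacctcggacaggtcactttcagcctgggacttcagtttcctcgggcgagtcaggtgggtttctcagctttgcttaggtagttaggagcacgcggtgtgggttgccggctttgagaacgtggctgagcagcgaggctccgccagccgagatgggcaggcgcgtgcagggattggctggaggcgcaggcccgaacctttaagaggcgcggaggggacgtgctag
Acta2, chr19:34255374-34255623, minus strand: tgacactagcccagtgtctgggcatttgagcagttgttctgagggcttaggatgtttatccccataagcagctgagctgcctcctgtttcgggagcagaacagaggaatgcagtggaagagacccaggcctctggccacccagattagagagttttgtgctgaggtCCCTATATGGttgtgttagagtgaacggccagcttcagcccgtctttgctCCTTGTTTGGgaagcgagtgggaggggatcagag

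Of the 30 genes, 20 had an entry in the RefSeq promoter table, with 24 windows between them. Both strands of the 250 bases were searched. AGGAAG was found in 8 of these 24 windows (33.3%), against 29.5% of all 32851 windows. TATAAA was found in 4 of 24 (16.7%) against 12.4%, and the CArG-like box in 5 of 24 (20.8%) against 8.59%. The motifs were searched separately and may overlap. These matches describe the letters only.

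Total counts ranged from 10953958 to 22397202 per library, and the 30 genes together held 18177 counts, 1215 in knockout library 16 and 4016 in wild-type library 15 at the extremes. Of the 30 genes, 21 had fewer than 300 counts over all 6 libraries and 11 had fewer than 100. The features CT010467.1, Lars2 and AY036118, on which ribosomal RNA reads are known to collect, took 35.6% of all counts in knockout library 14, 45.1% in knockout library 16 and at most 7.45% elsewhere. A count of 0 is taken to allow up to 3 counts (a one-sided limit), equal to 0.422 CPM in knockout library 16 and 0.115 CPM in wild-type library 17, for counting error only. Fmr1, the targeted gene, averaged 3.29 ± 1.71 CPM (SD, n = 3) in knockout libraries against 35.7 ± 3.58 CPM (SD, n = 3) in wild-type ones, with no overlap. Even this log2 fold change of -3.53 (SE 0.41) had an adjusted p of 0.2998 by the edgeR quasi-likelihood fit, against 3.18e-16 by DESeq2. Aldh1l1 stood at 411 ± 38.0 and 429 ± 12.5 CPM (SD, n = 3 each). Levels are CPM, counts scaled to library size with TMM factors and not to transcript length, and are given in the order of knockout libraries 14, 16 and 18, then wild-type libraries 13, 15 and 17.

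Claudin-5, the main tight junction protein of brain endothelium, is encoded by Cldn5 (chromosome 16, 18776847 to 18778262). Cldn5 stood at 0.245, 1.13 and 2.94 CPM in the knockout libraries, from 3, 8 and 76 counts. In the wild-type libraries it stood at 1.75, 2.13 and 1.91 CPM. The knockout libraries thus lay both below and above all wild-type libraries, with a 12.0-fold span against 1.22-fold. Mean Cldn5 was 1.44 ± 1.37 CPM in knockout and 1.93 ± 0.194 CPM in wild-type libraries (SD, n = 3 each). The log2 fold change was -0.34 (SE 0.68), and the 95% interval reached from a fold of 0.268 to one of 2.31. Without knockout library 18 Cldn5 had a log2 fold change of -1.60 (unadjusted p = 0.0487; adjusted p = 0.999 by edgeR).

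The other adhesion and surface genes of endothelium overlapped between genotypes as well. Cdh5 encodes VE-cadherin, the adherens junction protein of endothelium, and stood at 0.653, 1.27 and 1.35 CPM in knockout libraries against 0.894, 0.829 and 1.49 CPM in wild-type ones. Esam, an endothelial adhesion molecule, stood at 0.897, 1.27 and 2.09 CPM against 0.937, 0.908 and 2.18 CPM. Knockout library 18 and wild-type library 17 were the high ones for Esam. Pecam1, the platelet endothelial adhesion molecule, rested on 2 to 14 counts per library and stood at 0.163, 1.13 and 0.542 CPM against 0.468, 0.513 and 0.306 CPM. Vwf, the von Willebrand clotting factor, stood at 0.163, 0.704 and 1.35 CPM against 0.298, 0.434 and 0.918 CPM. For Vwf, as for Cldn5 and Esam, library 18 was the highest of the knockout libraries. Itm2a, a membrane protein gene of vessels on chromosome X (107397195 to 107403360), had the narrowest span over the knockout libraries of the endothelial genes without a 0 count, at 5.46, 5.91 and 4.45 CPM against 5.15, 5.13 and 6.73 CPM. Its 95% interval of the fold ran from 0.628 to 1.35.

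VEGF signals through Kdr, while Flt1 binds VEGF and limits its action. Flt1 (chromosome 5, 147561604 to 147726438) stood at 1.14, 1.13 and 3.02 CPM in knockout libraries against 0.681, 2.37 and 2.26 CPM in wild-type ones. Each genotype held low and high Flt1 libraries, with means of 1.76 ± 1.09 and 1.77 ± 0.944 CPM (SD, n = 3 each). Kdr stood at 0.571, 0 and 0.967 CPM in the knockout, from 7, 0 and 25 counts, and at 0.979, 0.632 and 1.72 CPM in the wild type. Its log2 fold change was -0.91 (SE 0.77; 95% interval of the fold 0.156 to 1.81). The angiopoietin receptor gene Tek and its partner Tie1 were below the expression filter. Tek had 4, 1 and 19 counts in the knockout and 2, 6 and 7 in the wild type, and Tie1 had 5, 5 and 3 against 10, 14 and 8. Emcn, the sialomucin of veins and capillaries, had 0, 0 and 6 counts against 1, 0 and 10, so that its reads came mainly from knockout library 18 and wild-type library 17. No fold is given for these 3 genes.

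Among the barrier transport genes, Mfsd2a had by far the most counts of the 30 genes, with 469 to 1465 per library. It encodes the lysophospholipid carrier that brings docosahexaenoic acid into the brain (chromosome 4, 122946850 to 122961194). Mfsd2a stood at 47.5, 66.0 and 36.9 CPM in knockout libraries against 62.4, 54.2 and 34.1 CPM in wild-type ones. The genotype means were 50.2 ± 14.7 and 50.2 ± 14.6 CPM (SD, n = 3 each), with a 95% interval of the fold from 0.646 to 1.53. Abcb1a, the gene of the drug pump P-glycoprotein, stood at 1.22, 0.704 and 2.55 CPM against 1.70, 1.94 and 1.53 CPM. Its counts were fractional in 6 of 12 deposited entries, as were those of its near-identical neighbour Abcb1b, so the division of reads between the pair is an estimate. Slco1a4, an organic anion carrier, stood at 0.489, 1.27 and 1.43 CPM against 0.639, 1.501 and 0.918 CPM. Ly6c1, a surface antigen of brain endothelium, stood at 0.489, 0.282 and 0.735 CPM against 0.639, 1.74 and 0.727 CPM. Wild-type library 15 alone lay above the rest for Ly6c1, and the log2 fold change of -0.93 (SE 0.59) had a 95% interval of the fold from 0.204 to 1.34. The close relatives Ly6c2 and Slco1a5 each had 4 counts, all in wild-type library 15.

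**Figure D1:**
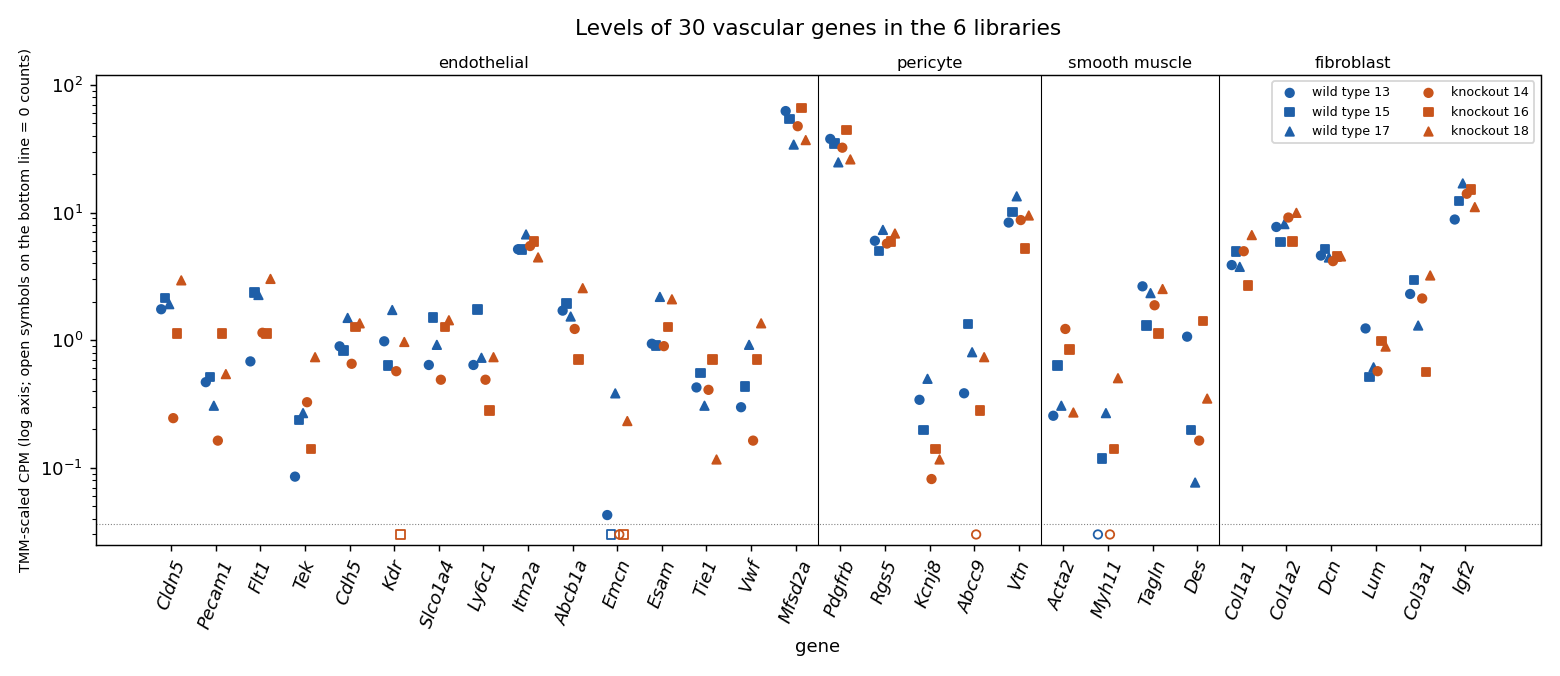
TMM-scaled CPM (log axis) of the 30 genes, grouped as endothelial, pericyte, smooth muscle and fibroblast, with 1 symbol for each of the 3 wild-type (blue) and 3 knockout (orange) libraries; open symbols on the bottom line are libraries with 0 counts. Mfsd2a and Pdgfrb lie above 24 CPM in every library, and Cldn5 spans 0.245 to 2.94 CPM within the knockout.

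Pericyte genes had the second block of counts, led by Pdgfrb, the receptor through which endothelial PDGF recruits pericytes. Pdgfrb stood at 32.2, 44.5 and 26.1 CPM in knockout libraries against 37.7, 34.9 and 24.7 CPM in wild-type ones (log2 fold change 0.07, SE 0.23; the 95% interval of its fold was 0.724 to 1.52). Rgs5, a brake on G protein signalling that marks pericytes, stood at 5.71, 5.91 and 6.85 CPM against 6.004, 4.98 and 7.31 CPM. The 3 knockout values of Rgs5 lay inside the wild-type range. Vtn, the adhesive protein vitronectin, stood at 8.73, 5.21 and 9.48 CPM against 8.35, 10.1 and 13.4 CPM. Its log2 fold change was -0.42 (SE 0.28), with a 95% interval of the fold from 0.478 to 1.17.

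Kcnj8 and Abcc9 encode the pore and the regulatory subunit of the ATP-sensitive potassium channel of pericytes, and they lie next to each other on chromosome 6. Abcc9 stood at 0, 0.282 and 0.735 CPM in knockout libraries against 0.383, 1.34 and 0.804 CPM in wild-type ones. From 0, 2 and 19 counts against 9, 34 and 21, its log2 fold change was -1.11 (SE 0.89; 95% interval of the fold 0.112 to 1.91). It was -2.85 without knockout library 18 and -0.60 without knockout library 14. Kcnj8 was below the expression filter, with 1, 1 and 3 counts against 8, 5 and 13. Each knockout library of Kcnj8 lay below each wild-type library, at 0.0816, 0.141 and 0.116 CPM against 0.341, 0.197 and 0.497 CPM (exact two-sided permutation p = 0.1, the smallest that 3 libraries against 3 can give). Counts of 1 and 3 have exact two-sided 95% Poisson intervals of 0.0253 to 5.57 and 0.619 to 8.77, which cover counting error only.

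Contractile genes of smooth muscle were scarce, with 25 to 94 counts for the 4 genes together in any library. Acta2, the smooth muscle actin whose window holds both CArG-like boxes shown above, stood at 1.22, 0.845 and 0.271 CPM in knockout libraries. In wild-type libraries it stood at 0.255, 0.632 and 0.306 CPM. Its log2 fold change of 0.88 (SE 0.70) came from 6 to 16 counts per library, with a 95% interval of the fold from 0.603 to 5.63. Tagln, the actin-binding protein transgelin, stood at 1.88, 1.13 and 2.51 CPM against 2.64, 1.303 and 2.33 CPM. The Tagln gene overlaps Pcsk7 by 2480 bases, its counts were fractional in 9 of 12 entries, and reads of the pair cannot be fully told apart. Myh11, the smooth muscle myosin, had 0, 1 and 13 counts against 0, 3 and 7, and Des, the muscle filament desmin, had 2, 10 and 9 against 25, 5 and 2. Myh11 and Des were below the filter, and their counts were spread over different libraries: the most Myh11 counts lay in knockout library 18 and the most Des counts in wild-type library 13.

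All 6 fibroblast genes passed the filter. Col1a1 and Col1a2, the chains of type I collagen, stood at 4.98, 2.68 and 6.65 CPM against 3.88, 4.94 and 3.75 CPM, and at 9.14, 5.91 and 9.94 CPM against 7.71, 5.89 and 8.11 CPM. For both chains knockout library 16 lay below the other knockout libraries and library 18 was highest. Col3a1, the type III collagen chain (chromosome 1, 45311538 to 45349706), followed the same order with a wider span, at 2.12, 0.563 and 3.21 CPM against 2.30, 2.96 and 1.301 CPM. The small proteoglycan decorin, encoded by Dcn, was the most even of the 30 genes, at 4.16, 4.51 and 4.53 CPM against 4.60, 5.17 and 4.44 CPM. Within genotypes its counts varied by 0.468 times what counting error alone gives (chi-square per degree of freedom), and its 95% interval of the fold was 0.646 to 1.33. Lum, the related proteoglycan lumican, stood at 0.571, 0.986 and 0.890 CPM against 1.24, 0.513 and 0.612 CPM.

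Igf2 is an imprinted growth factor gene of leptomeninges and choroid plexus (chromosome 7, 142650768 to 142666816). It stood at 14.0, 15.2 and 11.03 CPM in knockout libraries against 8.81, 12.4 and 16.9 CPM in wild-type ones (log2 fold change 0.07, SE 0.26). The choroid plexus and ependymal markers, 10 of 10 in the table, summed to 102, 30.7 and 91.3 CPM and to 83.9, 203 and 26.5 CPM in the same libraries, with 0 to 3 of them at 0 counts in a library. Their highest library, wild-type 15, was not that of Igf2, and wild-type library 17, where Igf2 was highest, had their lowest sum. Among these markers Ttr alone stood at 75.2, 4.22 and 70.3 CPM in knockout libraries and at 51.4, 168 and 7.84 CPM in wild-type ones. The part of choroid plexus RNA in the Igf2 values was not tested.

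None of the 24 genes tested passed for genotype: 0 had an adjusted p under 0.05 by the edgeR quasi-likelihood fit (all at 1.00), where 0% of all 14990 genes tested did. Before adjustment, 0 of 24 had p under 0.05, against 1.77% of all genes. DESeq2, edgeR's exact test and limma voom also called 0, where DESeq2 called 0.0534% and the exact test 0.06% of all genes. In 0 of 24 genes did the 3 libraries of 1 genotype lie wholly above those of the other, against 6.2% of all genes. The fold estimates divided into 13 higher and 11 lower in the knockout, where 49.6% of all genes were higher. The median log2 fold change was 0.01 for the 12 endothelial genes tested, -0.20 for 4 pericyte genes, 0.37 for 2 smooth muscle genes and 0.06 for 6 fibroblast genes, beside -0.0019 for all genes. In the authors' deposited table, which lists 23 of the 30 genes, 0 had a p under 0.05, and Vtn had the smallest (p = 0.0664, adjusted p = 0.77). These libraries leave wide intervals: the 95% interval of the fold ran from 0.646 to 1.33 for Dcn, from 0.603 to 5.63 for Acta2 and from 0.112 to 1.91 for Abcc9, so that changes in either direction remain possible. In RNA of such a pull-down, fewer cells of a type, less RNA per cell and less RNA carried along cannot be told apart.

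**Figure D2:**
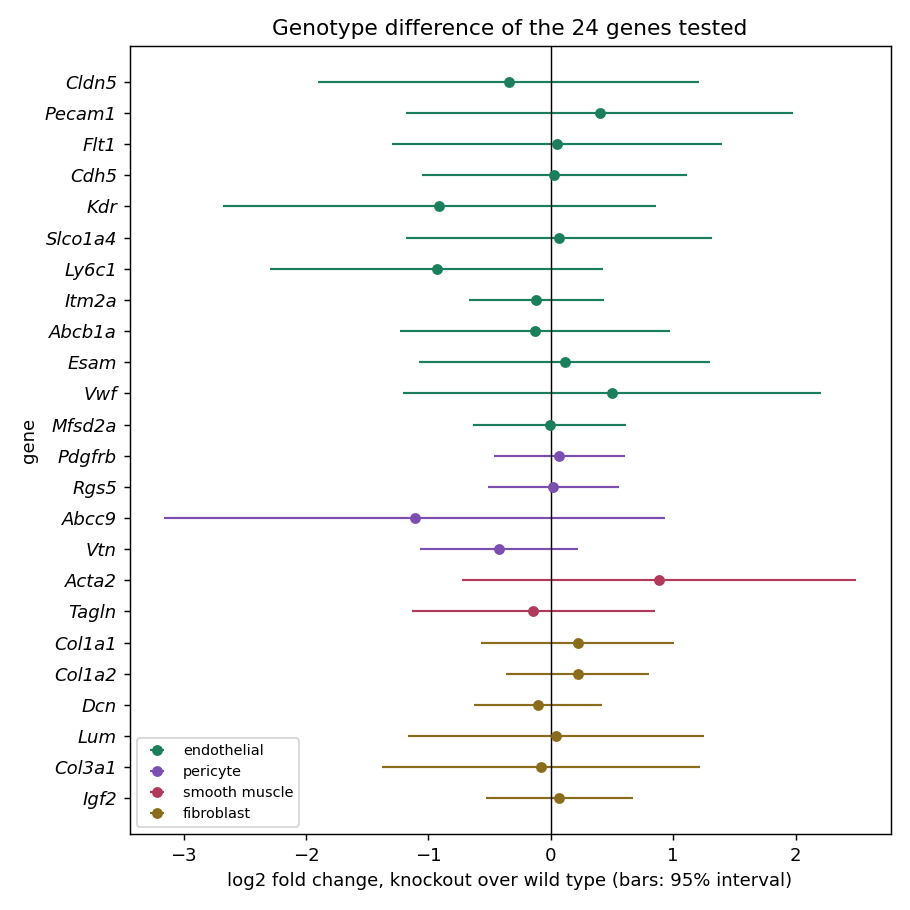
Log2 fold change, knockout over wild type, of the 24 genes tested (points) with 95% intervals (bars), coloured by group. Each interval spans 0, and the widest belong to the genes with few counts, such as Abcc9, Kdr, Vwf and Acta2.

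Variation between libraries was larger than counting error in most of the genes, as it was in most genes of the table. The chi-square of counts within genotypes, per degree of freedom, exceeded 2 in 27 of 30 genes. The share was 88.6% of all genes tested and 71.7% of tested genes with at most 300 counts. The median chi-square per degree of freedom was 4.96, beside 8.89 for all genes tested and 3.38 for the 2558 tested genes with at most 300 counts. Mfsd2a reached 81.2 and Pdgfrb 34.1, while Kcnj8 was at 0.874. The value grows with the counts of a gene, so it is not a ranking of variability.

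Knockout library 18 stood apart from knockout libraries 14 and 16 in these genes. It was above both in 17 of the 24 genes tested, against 37.9% of all genes, with 9 of 12 endothelial, 3 of 4 pericyte, 1 of 2 smooth muscle and 4 of 6 fibroblast genes. The same held for 11 of 12 neuron markers, 9 of 10 oligodendrocyte markers, 5 of 5 blood cell genes tested, 2 of 12 astrocyte markers, 2 of 10 microglia markers and 1 of 8 choroid plexus and ependymal markers tested. Among 108 further vascular genes, listed below, it held for 38, with 7 of 15 endothelial junction and surface genes, 3 of 13 mural genes and 1 of 10 barrier transporters. Without Mfsd2a the other 14 endothelial genes summed to 12.2, 15.6 and 22.5 CPM in knockout libraries against 14.7, 18.9 and 21.7 CPM in wild-type ones. The oligodendrocyte markers summed to 922, 619 and 1399 CPM and to 670, 871 and 1174 CPM. Knockout library 18 and wild-type library 17 were thus highest in both lists. The first number of the library title was 6 for knockout library 18 and wild-type libraries 15 and 17, and 5 for the others. Without Mfsd2a the endothelial sum was higher in every library with a 6 than in every library with a 5. So was the neuron marker sum, at 2439 to 2810 CPM with a 6 against 1431 to 2297 CPM with a 5. The astrocyte marker sum went the other way, at 15679 to 18887 CPM with a 6 against 19667 to 21173 CPM with a 5. The oligodendrocyte, microglia, choroid plexus and ependymal, blood cell, smooth muscle and fibroblast sums overlapped between these numbers. What the number stands for is not given in the labels, and its part in these sums was not tested. The blood cell genes summed to 41.3, 73.5 and 130 CPM and to 40.9, 88.4 and 64.4 CPM. The part of neuronal, oligodendrocyte or blood RNA in the vascular differences between libraries was not tested.

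**Figure D3:**
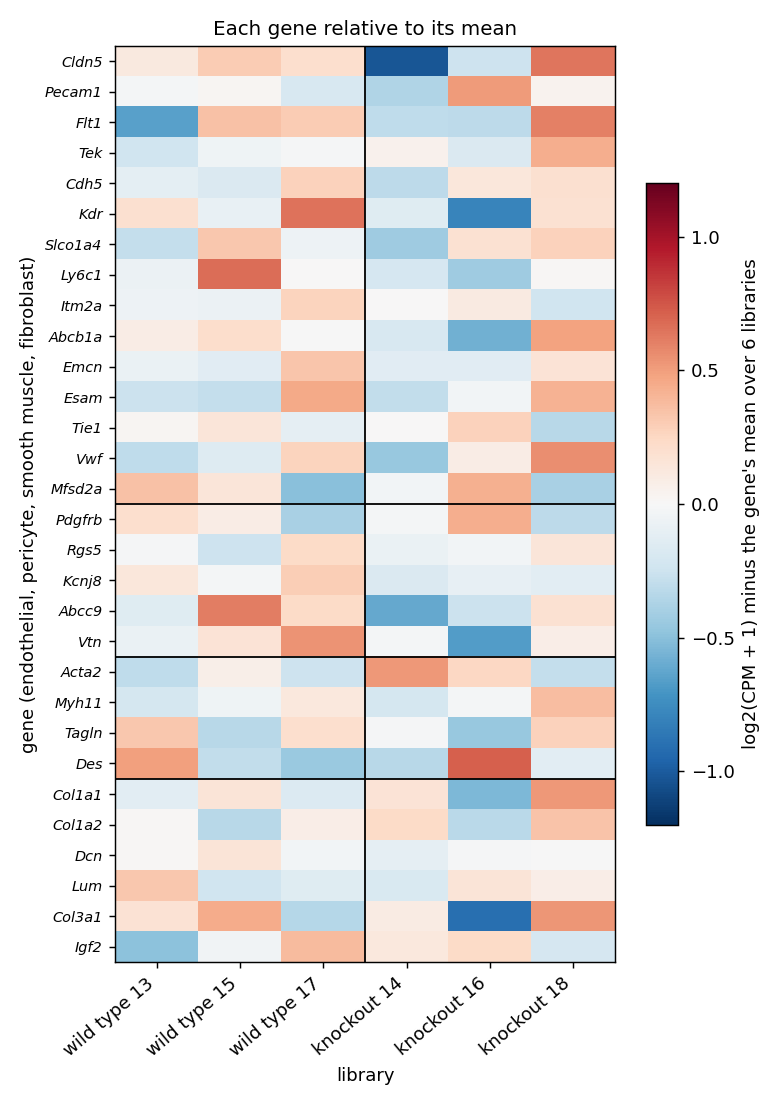
Each of the 30 genes (rows) in the 6 libraries (columns), as log2(CPM + 1) minus the mean of the gene over the libraries; red is above and blue below that mean. In knockout library 18 Cldn5 and Flt1 are red, whereas Mfsd2a and Pdgfrb are blue there and red in knockout library 16 and wild-type library 13.

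Leaving out knockout library 18 changed the picture of overlap. Of the 24 genes, 23 stayed in that fit, and 5 of them, Abcb1a, Abcc9, Cldn5, Kdr and Ly6c1, lay lower in both remaining knockout libraries than in every wild-type library, and Acta2 lay higher. The shares over all genes in that fit were 8.56% lower and 8.38% higher. None of these genes passed over all genes, and Cldn5 was the 1 gene at an unadjusted p under 0.05, where 2.58% of all genes were. The 2 libraries that remain are those with the large ribosomal RNA share and the fewest counts, and the part of that share in these values was not tested.

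Mfsd2a and Pdgfrb, which together held 52.4% of the counts of the 30 genes, shared an order of libraries. From high to low both ran through knockout 16, wild-type 13, wild-type 15, knockout 14, knockout 18 and wild-type 17. The 12 astrocyte markers summed to 19667, 20618 and 15679 CPM in knockout libraries against 21173, 18887 and 16188 CPM in wild-type ones. Of these markers, 2 did not follow the sum in knockout library 18 and lay above knockout libraries 14 and 16. Aldh1l1 stood there at 453 CPM, its highest value of all 6 libraries, and Aldoc at 7106 CPM. Knockout library 18 and wild-type library 17 thus had the lowest values of Mfsd2a, Pdgfrb and the astrocyte sum, and the highest values of the sum of the other endothelial genes. Without Pdgfrb the other 4 pericyte genes summed to 14.5, 11.5 and 17.2 CPM and to 15.1, 16.6 and 22.0 CPM. These too were highest in library 18 of the knockout and library 17 of the wild type. Their sum was also higher in every library with title number 6 than in every library with 5. The neuron marker sum divided in the same way, and the astrocyte marker sum in the opposite way. The share of Mfsd2a and Pdgfrb in the counts of the 30 genes was 44.2% in knockout library 18 and 41.8% in wild-type library 17. It was 55.1% to 64.6% in the others. The source of the Mfsd2a and Pdgfrb reads was not tested.

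**Figure D4:**
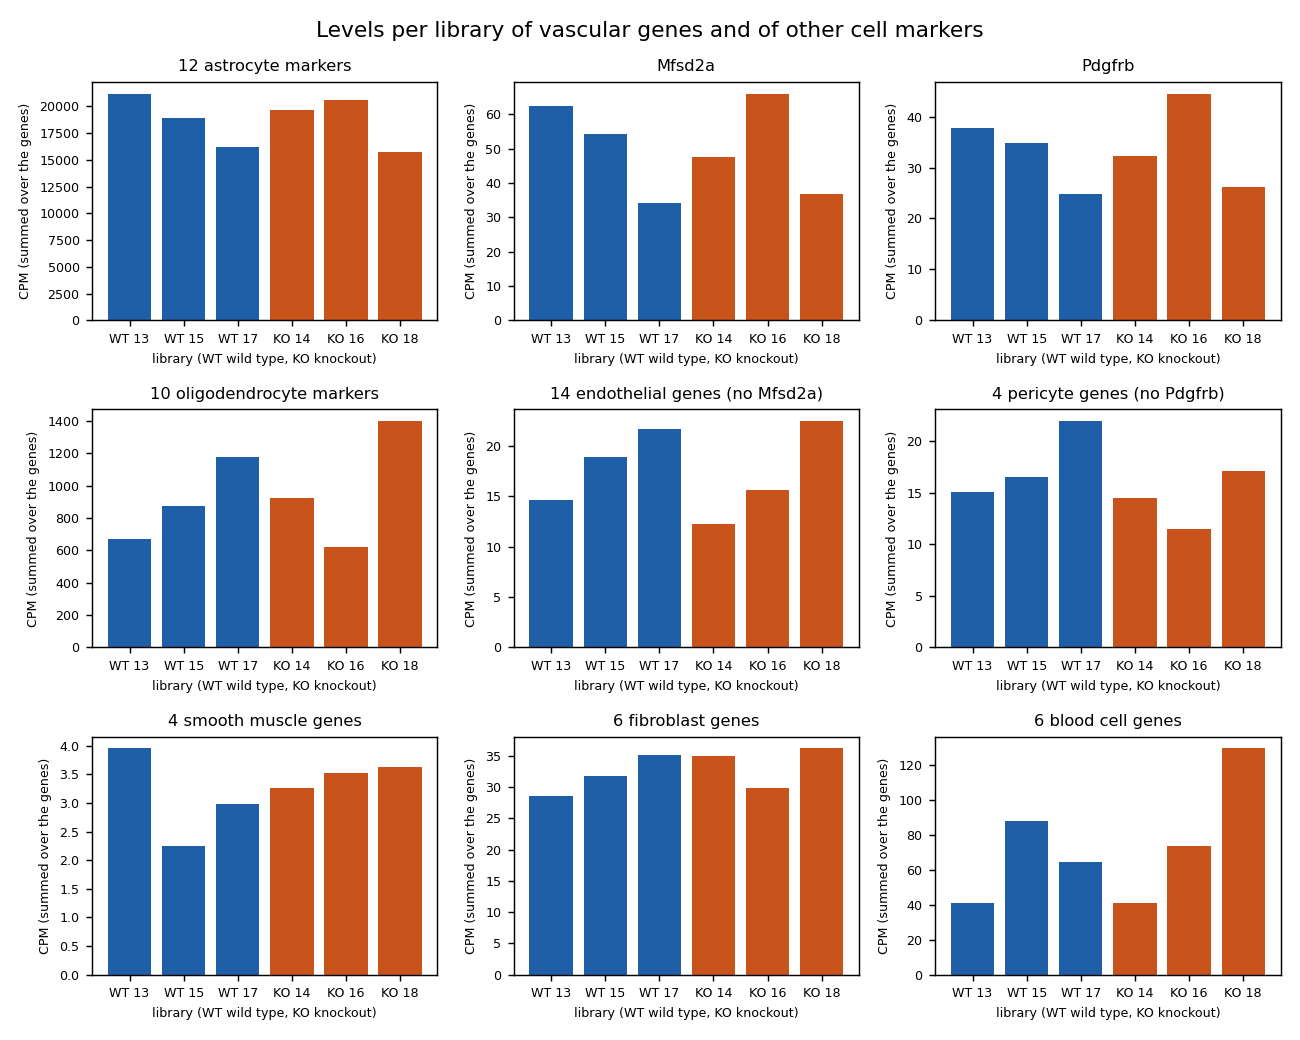
CPM per library (bars from 0; wild type blue, knockout orange) of Mfsd2a, Pdgfrb, the other vascular genes summed by group, and marker sums of astrocytes, oligodendrocytes and blood. Mfsd2a, Pdgfrb and the astrocyte sum are lowest in wild-type library 17 and knockout library 18, where the 14 other endothelial genes are highest.

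Beyond the 30 genes, 128 further genes of vessels and their signals were read in 10 lists, of which 108 could be tested and 0 passed by the edgeR quasi-likelihood fit after adjustment over all genes. At an unadjusted p under 0.05, 3 were higher (0.734% of all genes) and 1 was lower (1.03% of all genes). Libraries did not overlap in 4 higher and 5 lower genes, against 2.95% and 3.25% of all genes. The median log2 fold change over the 108 was -0.04.

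Endothelial junction, adhesion and surface genes, 15 of 18 tested, divided into 7 higher and 8 lower (median -0.0065). Plvap, which spans the diaphragms of leaky endothelium, stood at 6.69, 7.60 and 5.96 CPM against 5.71, 3.44 and 2.56 CPM (log2 fold change 0.78, SE 0.33; unadjusted p = 0.0422; adjusted p = 1.00 by edgeR). S1pr1, a sphingosine phosphate receptor that astrocytes also express, had the most counts of this list with means of 960 ± 335 CPM and 1010 ± 253 CPM (SD, n = 3 each). Barrier transporters, 10 of 12 tested, had 3 higher and 7 lower (median -0.09), with 0 at an unadjusted p under 0.05. Among them Slco1c1, the thyroid hormone carrier of endothelium and astrocytes, averaged 158 ± 44.2 against 154 ± 55.2 CPM, and Slc7a5, the large amino acid carrier, 25.1 ± 5.68 against 28.5 ± 5.16 CPM (SD, n = 3 each). Abcc4, an efflux pump, averaged 8.05 ± 0.609 against 9.90 ± 3.96 CPM (SD, n = 3 each).

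Transcription factors of endothelium were sparse, with 5 of 10 tested, 2 higher and 3 lower. Sox18, an early vascular factor, stood at 0.408, 0.141 and 0.426 CPM against 0.554, 1.03 and 0.765 CPM (log2 fold change -1.14, SE 0.56), and Lef1, which carries out Wnt signals in the nucleus, at 4.57, 3.80 and 3.09 CPM against 5.54, 6.04 and 4.63 CPM. In both genes every knockout library lay below every wild-type library, with adjusted p of 1.00 by edgeR. Angiogenic ligands, all 14 tested, divided into 7 higher and 7 lower (median 0.05). Angptl4, a secreted inhibitor of lipoprotein lipase, stood at 14.6, 29.4 and 17.6 CPM against 13.9, 13.3 and 11.3 CPM (unadjusted p = 0.0348). Pdgfb, the ligand of the Pdgfrb receptor, stood at 2.85, 2.53 and 1.86 CPM against 2.26, 3.95 and 4.97 CPM, with overlap. Apln, the apelin ligand, averaged 184 ± 51.2 against 196 ± 59.7 CPM (SD, n = 3 each). Coreceptors and Wnt receptors of vessels, 10 of 12 tested, had 6 higher and 4 lower (median 0.04). Of these Nrp1, a VEGF coreceptor, averaged 16.6 ± 3.25 against 18.7 ± 3.13 CPM, Tgfbr2, a TGF-beta receptor, 5.33 ± 0.916 against 4.71 ± 0.197 CPM, and Tspan12, a partner of the Norrin receptor, 46.4 ± 22.7 against 45.7 ± 8.39 CPM (SD, n = 3 each).

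Of 16 further mural genes 13 were tested, with 6 higher and 7 lower (median -0.18). Heyl, a target of Notch in mural cells, had the smallest p of the 128 genes and stood at 10.7, 20.3 and 8.70 CPM against 6.86, 6.24 and 7.003 CPM (log2 fold change 0.96, SE 0.32; unadjusted p = 0.0155; adjusted p = 1.00 by edgeR). Knockout library 16 lay well above the other knockout libraries for Heyl. Cald1, the actin-binding protein caldesmon, stood at 3.67, 4.08 and 3.71 CPM against 4.47, 6.68 and 8.95 CPM (log2 fold change -0.81, SE 0.30; unadjusted p = 0.0248). Tbx18, a mural transcription factor named here after its values were seen, also lay lower in each knockout library, at 1.39, 0.704 and 0.851 CPM against 1.41, 1.42 and 2.26 CPM. Myl9, a regulatory myosin light chain, averaged 24.1 ± 2.01 against 29.7 ± 5.303 CPM (SD, n = 3 each).

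Fibroblast and leptomeningeal genes, all 18 tested, had 4 higher and 14 lower (median -0.08), with 0 at an unadjusted p under 0.05. Col6a2, a type VI collagen chain, averaged 0.598 ± 0.390 against 1.40 ± 0.586 CPM, and Bgn, the proteoglycan biglycan, 3.51 ± 1.59 against 5.56 ± 1.46 CPM (SD, n = 3 each). Ptgds, the prostaglandin D synthase of leptomeninges and oligodendrocytes, averaged 891 ± 188 against 943 ± 239 CPM (SD, n = 3 each). Basement membrane genes, all 14 tested, lay close to 0, from -0.20 to 0.23 on the log2 scale, with 7 in each direction. Sparc, a matrix protein also made by astrocytes, averaged 132 ± 42.4 against 114 ± 20.5 CPM, and Lamc1, a laminin chain, 11.8 ± 0.900 against 12.9 ± 1.11 CPM (SD, n = 3 each). Perivascular macrophage genes, 4 of 8 tested, had 1 higher and 3 lower, and all 8 summed to 3.80 to 6.04 CPM in the knockout and 5.49 to 6.62 CPM in the wild type. Cbr2, a carbonyl reductase, stood at 0.979, 0.141 and 0.696 CPM against 1.02, 1.46 and 1.15 CPM with no overlap, and F13a1, the clotting factor subunit, at 1.06, 1.27 and 1.39 CPM against 1.92, 1.303 and 1.80 CPM. Of the 6 blood cell genes 5 were tested and all 5 were higher (median 0.27), with 0 at an unadjusted p under 0.05. Hbb-bs, a beta globin, stood at 15.3, 27.3 and 54.8 CPM against 12.5, 31.6 and 23.1 CPM, and Alas2, the first enzyme of heme synthesis in red cells, averaged 0.796 ± 0.202 against 0.475 ± 0.161 CPM (SD, n = 3 each).

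**Figure D5:**
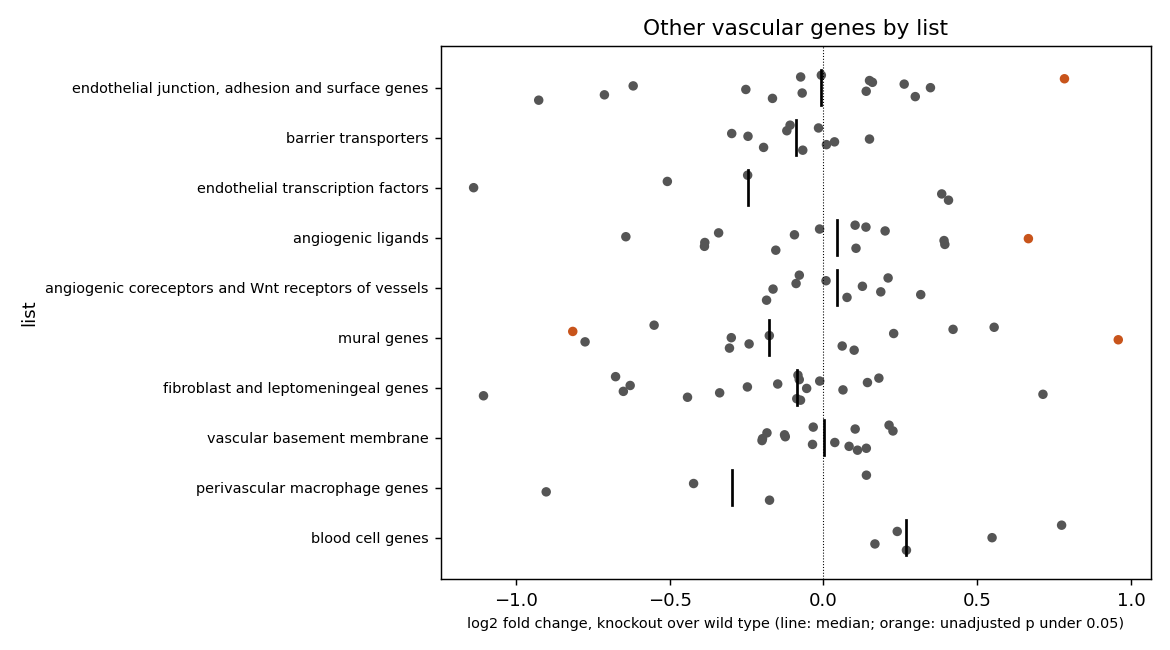
Log2 fold change, knockout over wild type, of the 108 further genes tested, by list (points; black line, list median; orange, unadjusted p under 0.05). Plvap, Angptl4 and Heyl are the orange points on the right and Cald1 the one on the left, and 0 genes passed after adjustment.

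The marker lists of other cells, all their genes in the table, give the surroundings of these values. Astrocyte markers summed to 15679 to 20618 CPM in the knockout and 16188 to 21173 CPM in the wild type, with Sox9 (85.9 CPM over all libraries) and Aldoc (6995 CPM) at the ends. Neuron markers summed to 1983 to 2810 and 1431 to 2679 CPM, from Gad2 (27.5 CPM) to Snap25 (753 CPM), and oligodendrocyte markers to 619 to 1399 and 670 to 1174 CPM, from Opalin (7.16 CPM) to Cnp (358 CPM). Microglia markers summed to 54.9 to 63.2 and 57.4 to 75.9 CPM, with Itgam (0.834 CPM) the lowest as read. Itgam has 2 features of that name, of which only the first was read. Choroid plexus and ependymal markers ran from Tmem212 (0.178 CPM) to Ttr (62.8 CPM). No astrocyte, neuron, oligodendrocyte or microglia marker was at 0 counts in any library.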

How the data were processed

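The deposited table holds RSEM expected counts per gene for 12 entries, per the file headers, not scaled by the authors. The submitters' processing notes name STAR 2.5.3a, RSEM 1.3.0, edgeR and the mm10 build. Annotation release and strand setting: not given in the sources used here. A second table, the authors' deposited comparison, gives log2 fold changes, p-values, adjusted p-values and a scaled signal per entry, of which only fold changes and p-values were read. In the median feature the 2 entries of each library differed by about the sampling noise (median chi-square 0.467 to 0.494, where sampling alone gives 0.455). Between libraries of 1 genotype the median was 2.93 to 18.8, over features with at least 20 counts. Chi-square per degree of freedom over these features was 1.17 to 2.34 between entries, above the 1 of sampling alone. It was 17.8 to 407 between libraries of 1 genotype. Both entries were added up, the sum was rounded, and each library is 1 sample.

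Genes were filtered with filterByExpr, which left 14990, and scaled by TMM. The quasi-likelihood F test of edgeR 4.0.16, under R 4.3.3, had genotype as its only term, and p-values were adjusted by Benjamini-Hochberg over all genes (threshold 0.05). DESeq2 1.42.0, edgeR's exact test and limma 3.58.1 voom were alternatives. SEs come from the F statistic. Single genes were also tested by the exact permutation test over libraries on log2(CPM + 1). The test was run on simulated counts first, and the outcome of that run is not given here. Depth limits precision to the intervals given.

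The members and lists were chosen with earlier results of these data known. Named were all 30 genes and, from each further list, the 2 genes with the smallest p and the 1 with the most CPM, plus Fmr1, Aldh1l1 and the extremes of each marker list. Of the genes this rule names, 2 are not reported here. Alternatives were other scalings, filters, tests, library subsets and the first number of the library title as a covariate. Library numbers do not pair the genotypes. The sums without Mfsd2a and Pdgfrb were chosen after their values were seen.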

Additional observations from a re-analysis of the deposited data

How the results depend on the processing

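Under the 16 alternatives run, 0 of the 30 genes and 0 of the 128 further vascular genes passed wherever they could be tested, and the smallest adjusted p of the 30 was 0.451. The fits held 17 to 30 of the 30 genes and 95 to 128 of the further genes, and the fit without a filter held all of both. Few genes of any kind passed: in the fits with at least 2 libraries of each genotype, 0 to 9 of 13735 to 24125 genes did. Directions of genes near 0 were not stable. Leaving out 1 library at a time gave log2 fold changes from -0.80 to 0.16 for Abcb1a, -0.20 to 0.34 for Cdh5, -1.60 to 0.14 for Cldn5, -0.11 to 0.48 for Col1a1, -0.64 to 0.30 for Col3a1, -0.33 to 0.65 for Esam, -0.64 to 0.32 for Flt1, -0.13 to 0.33 for Igf2, -0.20 to 0.023 for Itm2a, -0.17 to 0.52 for Lum, -0.25 to 0.18 for Mfsd2a, -0.16 to 0.24 for Pdgfrb, -0.19 to 0.87 for Pecam1, -0.099 to 0.17 for Rgs5, -0.28 to 0.46 for Slco1a4 and -0.45 to 0.079 for Tagln. Genes that kept their sign also moved, from -2.85 (without knockout library 18) to -0.60 for Abcc9, -1.73 (without knockout library 18) to -0.45 for Kdr, -1.36 to -0.34 (without wild-type library 15) for Ly6c1, 0.32 (without knockout library 14) to 1.40 for Acta2, 0.21 to 0.95 for Vwf (in the 4 of 6 fits that held it), -0.59 to -0.22 for Vtn, -0.15 to -0.029 for Dcn and 0.068 to 0.40 for Col1a2. The endothelial median then ran from -0.33 (without knockout library 18) to 0.21 and the smooth muscle median from 0.088 (without knockout library 14) to 0.51. Genes without overlap numbered 0 to 6 of the 23 to 24 held, against 12.6% to 18.1% of all genes in these fits. Genes at an unadjusted p under 0.05 numbered 0 to 1, against 1.62% to 2.79% of all genes. With 1 knockout library left (without 14 and 16, its spread assumed to be that of the wild type), Abcb1a was at 0.59, Acta2 at -0.52, Cldn5 at 0.63, Col3a1 at 0.58, Igf2 at -0.18, Pdgfrb at -0.29 and Tagln at 0.29. The medians were 0.44 for endothelial, 0.34 for fibroblast and -0.12 for smooth muscle genes, and 9 genes did not overlap, as did 50.7% of all genes. Without scaling the median of all genes shifted to -0.44. Relative to 0 the values there were -0.36 for Cdh5, -0.11 for Col1a1, -0.17 for Col1a2, -0.24 for Esam, -0.24 for Flt1, -0.42 for Igf2, -0.36 for Lum, -0.43 for Pdgfrb, -0.025 for Pecam1, -0.40 for Rgs5 and -0.28 for Slco1a4. The medians without scaling were -0.39 (endothelial), -0.36 (fibroblast), -0.62 (pericyte) and -0.069 (smooth muscle). There 2 of 24 genes, Dcn and Itm2a, did not overlap and lay lower in the knockout, against 22.5% of all genes. Limma voom gave 0.012 for Col3a1 and 0.0045 for Tagln. Mfsd2a was at 0.0027 with DESeq2 size factors and 0.0049 in DESeq2. With the first title number as a covariate Pdgfrb was at -0.088 and the smooth muscle median at 0.23. With genes over a mean of 1 CPM, which leaves 17 of the 24, the pericyte median was 0.019 and the smooth muscle median -0.14. The cause of these shifts was not tested.

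Depth limits most of these genes, and 6 were below the filter. With 3 libraries a genotype the exact permutation test cannot go below p = 0.1, which Kcnj8 reached. No paired analysis was possible because the library numbers differ between the genotypes.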
